A study of Mus musculus with 24 samples.

Results

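The 38 genes described here encode proteins of mitosis: cyclins and kinases of mitotic entry, the spindle checkpoint and chromosomal passenger complex, the anaphase machinery, mitotic kinesins, kinetochore and spindle proteins, cytokinesis factors and chromosome condensation factors. They were taken by name and not by a cut on a measured value, though with earlier results of these data known. They are 38 of the 56941 gene identifiers counted and 38 of the 13281 genes that passed the filter on low counts. They were read in RNA-seq of polyadenylated RNA from a line of mouse hypothalamic cells, described in the design text as adult hypothalamic neuronal cells. The line grew in high-glucose (HG) or normal-glucose (NG) medium, without mogroside V or with it at dose labels 1, 2 or 3. Mogroside V is a sweet triterpene glycoside of monk fruit. The design text gives doses of 15, 60 and 160 µM but ties none of them to a dose label, and the labels and design text give no glucose concentration, treatment time or vehicle.

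The groups were HGC (high glucose, control), HG1, HG2 and HG3 (high glucose with mogroside V), NGC (normal glucose, control) and NG1, NG2 and NG3 (normal glucose with mogroside V), each with 3 deposited libraries. The files of HG2 replicate 3 and HG3 replicate 2 were identical and neither was used, so 22 libraries remained: 10 in high glucose and 12 in normal glucose, with 2 each in HG2 and HG3. The labels do not say that replicates were separate cultures, so p-values rest on a spread between libraries that may be technical. All groups share the cell line, which is the only line studied.

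Dividing cells build the mitotic programme in G2. Cyclin B bound to Cdk1 starts mitosis, the spindle checkpoint holds the anaphase-promoting complex until every kinetochore is attached, and its release lets separase open the cohesin rings and lets cyclin B be destroyed. Transcripts of these genes rise together in G2 and M in cycling cells, under the DREAM, B-Myb and FoxM1 complexes, which bind the CHR element, and NF-Y, which binds CCAAT boxes. Most neurons of the adult hypothalamus have left the cell cycle, whereas immortalised lines made from them divide.

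The 22 libraries held 3396249 to 7773074 counts in genes, with a median of 3864830. NG3 replicate 3 stood apart from the other libraries: it had the fewest genes detected (16535), the lowest mitochondrial share (5.43%) and the lowest share of reads outside genes (14.4%). HGC replicate 2 lay apart on the second principal component. The neuron markers Tubb3 and Map2 were present, at 41.7 to 60.4 CPM and 33.2 to 49.6 CPM in high glucose and 54.7 to 76.2 CPM and 44.1 to 69.5 CPM in normal glucose. Stmn2 was at 13.0 to 28.6 CPM in high glucose and 13.5 to 22.6 CPM in normal glucose, and Nefl and Nefm were low in every library, Nefm reaching 9.86 CPM in high glucose and 6.78 CPM in normal glucose. Among the markers at or near 0, Elavl4 had no count in any of the 22 libraries, Snap25 none in 20 and Rbfox3 none in 17. Of 9 fibroblast and pericyte markers, Col1a1, Col1a2 and Acta2 were each at 977 CPM or more in every library, Dcn was at 5.01 to 14.0 CPM in high glucose and 4.04 to 9.61 CPM in normal glucose, and Lum was at 0 in 18 libraries. Markers of endothelial cells, microglia, oligodendrocytes and astrocytes were at 0 or low, and the highest of them, Csf1r, reached 18.6 CPM.

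All 38 genes were measured in every library, and the lowest count of a member in any used library was 18 (Kif20a). Per kilobase of exon, the levels in normal glucose ran from 2.33 CPM per kb for Kif20a to 147 CPM per kb for Ube2c and 141 CPM per kb for Cdk1. CPM here are a gene's counts scaled to a common total of gene counts per library. Summed over the 38 genes, the level was 5738 to 6009 CPM in the 10 high-glucose libraries (5864 ± 88.8, SD) and 6297 to 7506 CPM in the 12 normal-glucose libraries (7019 ± 299, SD). The summed level was 16.5% lower in high glucose, and the libraries of the media did not overlap in these CPM. The nearest normal-glucose library was NG3 replicate 3, and the next was at 6831 CPM. These CPM leave out the composition factors (TMM) of the tests below. The factors were 0.965 to 0.993 in high glucose and 0.981 to 1.07 in normal glucose, so scaling by them would bring the media closer. With that scaling the sums would overlap, since NG3 replicate 3 (6297 CPM) had a factor of 1.07 and HGC replicate 3 (6009 CPM) 0.987. Mean log2(CPM + 1) over the 38 genes, also without the factors, overlapped at 6.67 to 6.80 in high glucose and 6.75 to 7.15 in normal glucose. Only NG3 replicate 3 made this overlap, since without it normal glucose began at 6.96. In bulk RNA, fewer cells in mitosis and less mitotic RNA per cell cannot be told apart.

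**Figure D1:**
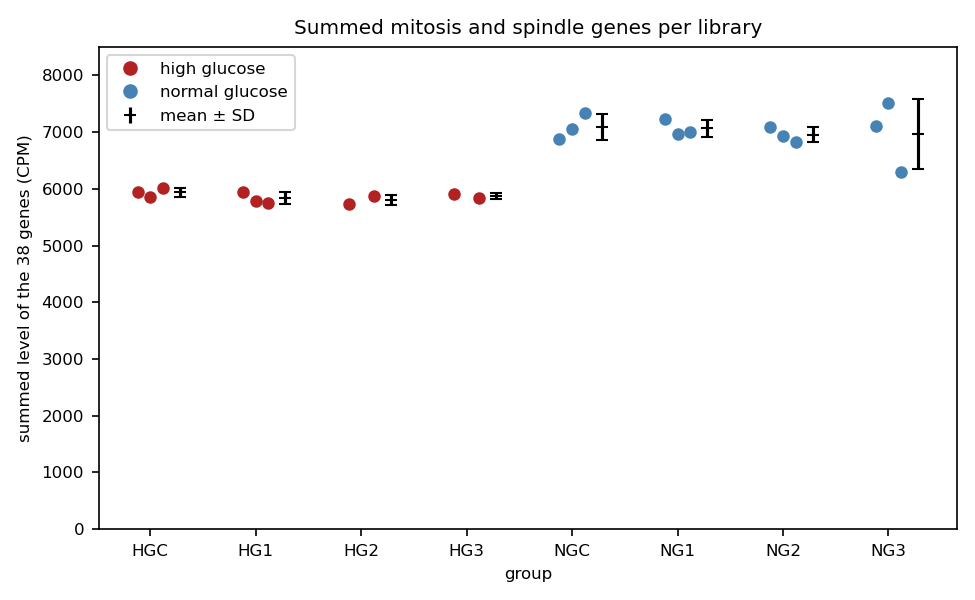
Summed level of the 38 genes in CPM (y axis, from 0) in each library (points) of the 8 groups (x axis), with the mean ± SD of each group beside its points; red points are high glucose and blue points normal glucose. The 10 high-glucose libraries lie between 5738 and 6009 CPM and the 12 normal-glucose libraries between 6297 and 7506 CPM. These CPM leave out the TMM factors, with which the libraries of the media would overlap.

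Between the media, averaged over the 4 treatment levels, 20 of the 38 genes fell in high glucose at an edgeR quasi-likelihood adjusted p under 0.05, none rose and 18 did not pass. Over all 13281 genes tested, 4.38% were called lower in this comparison. The log2 fold changes (high over normal glucose) of the 38 genes ran from -0.52 to 0.10 with a median of -0.22, against a median of -0.01 over all genes, and 35 of 38 were negative against 52.9% of all genes. The condensin subunit Ncaph, cyclin B1 (Ccnb1), the microtubule-depolymerising kinesin Kif2c and the checkpoint protein Mad2l1 had the lowest p-values. Spc25 was the last gene inside the threshold (adjusted p = 0.0268) and Anln the nearest outside it (adjusted p = 0.0601). Of the 20 calls, 13 held under every one of 32 alternative settings, among them all of the 12 with the lowest p. The other 7, Aurka, Aurkb, Cenpe, Ckap2, Kif23, Spc25 and Tpx2, were lost in some. Leaving out NG3 replicate 3 gave 26 lower genes and leaving out HG3 replicate 3 gave 14.

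**Figure D2:**
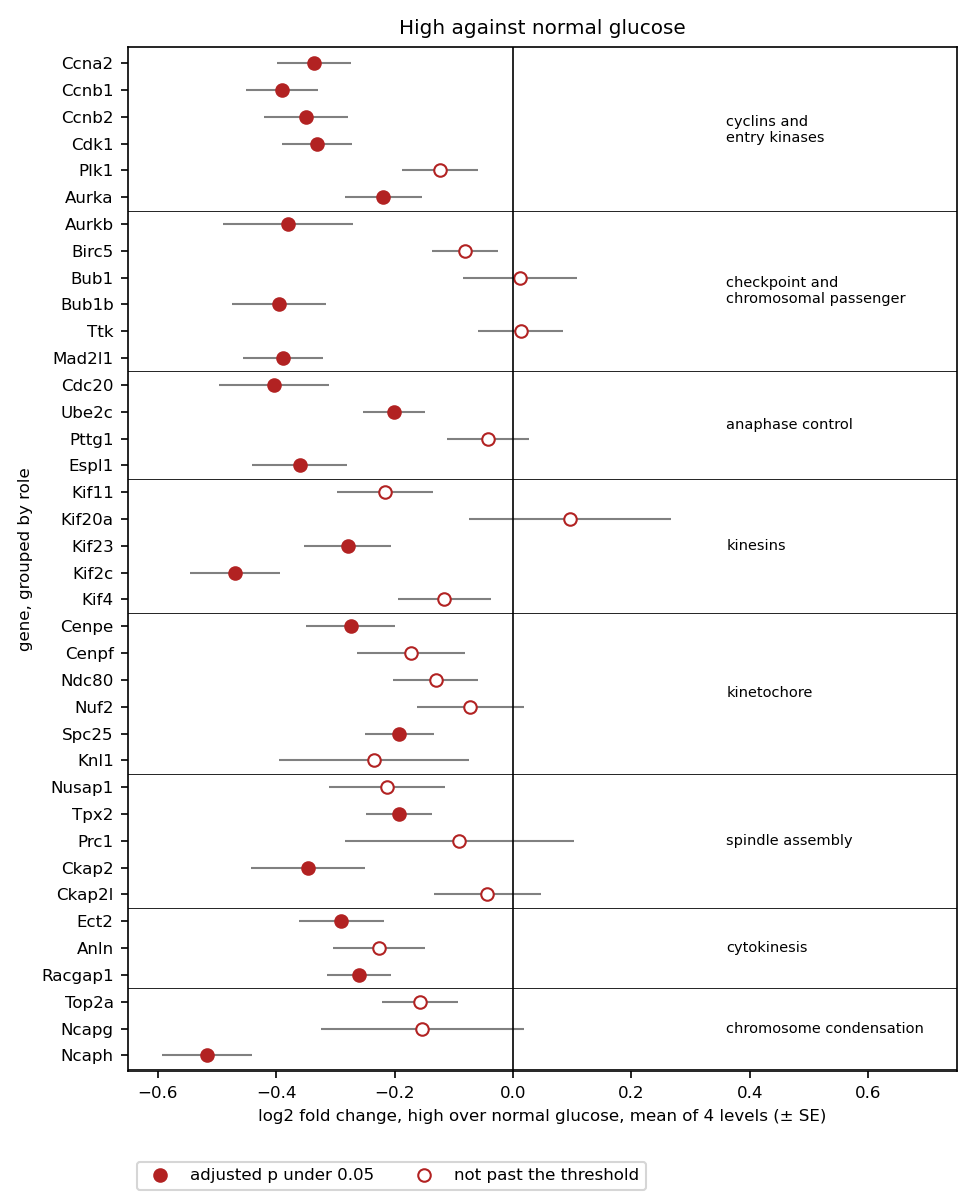
log2 fold change of each of the 38 genes (y axis, grouped by role), high over normal glucose averaged over the 4 treatment levels (x axis), with its standard error; filled points have an adjusted p under 0.05. The 20 filled points all lie left of 0, from -0.52 for Ncaph to -0.19 for Tpx2.

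Promoters of these genes are described here without a test of their part in the difference between the media. RefSeq promoter windows of GRCm38.p6, each from 250 bases before to 50 bases after an annotated start, were given for 34 of the 38 genes; the exceptions are Ccna2, Aurkb, Kif20a and Tpx2. Each window was searched on both strands for the letters CCAAT and for a pair of CHR cores. One CHR core searched was TTTGAA. The other core searched was TTTAAA, which reads the same on both strands. At least 1 CCAAT was in 24 of 34 windows (70.6%), against 37.9% of 27025 genes with a window. TTTGAA was in 25 of 34 (73.5%), against 18.1% of all genes, and TTTAAA in 8 of 34 (23.5%), against 13.2%. A CCAAT together with either CHR core was in 23 of 34 (67.6%), against 10.9% of all genes. These shares describe a gene list that is known for such elements, and a match is not a bound site. In the windows of cyclin B1, cyclin B2, Cdk1 and the anaphase activator Cdc20, written below 5′ to 3′ along the gene with matches on either strand in capitals, the matches lie mostly within 100 bases before the start.
Ccnb1 (chr13:100786437-100786736, minus strand): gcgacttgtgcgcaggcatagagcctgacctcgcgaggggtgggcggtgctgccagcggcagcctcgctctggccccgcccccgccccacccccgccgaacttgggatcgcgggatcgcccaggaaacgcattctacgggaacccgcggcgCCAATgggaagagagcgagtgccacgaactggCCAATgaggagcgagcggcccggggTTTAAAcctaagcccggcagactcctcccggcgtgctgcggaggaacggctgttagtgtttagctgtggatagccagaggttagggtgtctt
Ccnb2 (chr9:70421505-70421804, minus strand): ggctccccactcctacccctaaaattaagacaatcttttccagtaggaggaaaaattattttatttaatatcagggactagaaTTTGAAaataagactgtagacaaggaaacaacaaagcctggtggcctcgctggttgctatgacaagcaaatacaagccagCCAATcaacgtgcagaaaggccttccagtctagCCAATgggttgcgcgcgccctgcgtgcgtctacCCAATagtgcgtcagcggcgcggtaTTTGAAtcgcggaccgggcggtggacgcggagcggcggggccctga
Cdc20 (chr4:118437294-118437593, minus strand): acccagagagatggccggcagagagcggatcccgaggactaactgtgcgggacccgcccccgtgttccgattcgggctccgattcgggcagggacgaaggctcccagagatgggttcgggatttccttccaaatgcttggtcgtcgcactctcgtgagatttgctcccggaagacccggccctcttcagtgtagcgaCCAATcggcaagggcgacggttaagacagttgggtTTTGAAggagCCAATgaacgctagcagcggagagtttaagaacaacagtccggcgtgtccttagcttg
Cdk1 (chr10:69352863-69353162, minus strand): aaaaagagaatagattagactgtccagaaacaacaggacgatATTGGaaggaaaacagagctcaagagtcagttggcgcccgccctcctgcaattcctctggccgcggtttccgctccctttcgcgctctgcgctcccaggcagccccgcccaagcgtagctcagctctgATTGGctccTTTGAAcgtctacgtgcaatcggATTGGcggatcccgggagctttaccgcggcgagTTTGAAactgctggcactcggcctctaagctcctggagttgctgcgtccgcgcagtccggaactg
In Ccnb1 the CCAAT matches begin at -99 and -67 and the TTTAAA at -42, counting the annotated start as position 1 with no position 0. In Ccnb2 they begin at -87, -54 and -21, with TTTGAA at 5 and farther off at -167. In Cdc20 they begin at -53 and -8 with TTTGAA between them at -18. In Cdk1 the CCAAT matches are on the opposite strand, at -208, -80 and -48, and TTTGAA begins at -71 and -15. The windows of Ncaph and Mad2l1, whose libraries did not overlap in CPM between the media, held none of these letters. Nor did the windows of Nuf2, Nusap1 and Pttg1, which were not called between the media. Both kinds of match were in 14 of the 17 lower genes with a window and in 23 of all 34. A link between the matches and the difference between the media was not tested.

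Of the 6 cyclins and entry kinases, 5 fell and Plk1 did not pass, and their summed level was 21.0% lower in high glucose. Ccnb1, the cyclin that activates Cdk1 for mitotic entry, ranged from 138 to 208 CPM (median 165) in high glucose and from 173 to 252 CPM (median 227) in normal glucose. It fell by 0.39 ± 0.06 (log2, SE; adjusted p = 1.05e-05), with 7 of 10 high-glucose libraries below the lowest normal-glucose one. Cdk1, the kinase itself, ranged from 463 to 605 CPM (median 545) in high glucose and from 513 to 796 CPM (median 698) in normal glucose, a change of -0.33 ± 0.06 (adjusted p = 0.000107). The ranges of Cdk1 overlapped, with NGC replicate 1 the lowest normal-glucose library, and 10 of 12 normal-glucose libraries lay above every high-glucose one. Ccna2, the cyclin of S and G2, ranged from 111 to 153 CPM (median 133) in high glucose and from 145 to 198 CPM (median 166) in normal glucose (-0.34 ± 0.06, adjusted p = 0.000158). Ccnb2, the second B-type cyclin, ranged from 82.9 to 115 CPM (median 88.7) in high glucose and from 96.9 to 140 CPM (median 121) in normal glucose (-0.35 ± 0.07, adjusted p = 0.000562). In Ccna2, 9 of 10 high-glucose libraries lay below all of normal glucose, and in Ccnb2 it was 8 of 10. Aurka, the centrosomal Aurora kinase, ranged from 80.7 to 120 CPM (median 94.7) in high glucose and from 100 to 144 CPM (median 118) in normal glucose (-0.22 ± 0.06, adjusted p = 0.0218). Plk1, a kinase of entry and spindle assembly, averaged 130 ± 18.3 CPM in high glucose and 148 ± 17.5 CPM in normal glucose (SD, n = 10 and 12; -0.12 ± 0.06, adjusted p = 0.25).

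Of the 6 checkpoint and chromosomal passenger genes, 3 fell. The summed levels of the 6 genes ran from 717 to 783 CPM in high glucose and from 785 to 918 CPM in normal glucose. The nearest libraries, HG1 replicate 2 and NG1 replicate 3, had TMM factors of 0.965 and 1.01. Scaling by these would reverse their order, so the media were apart only in CPM without TMM factors. Mad2l1, the checkpoint protein that holds Cdc20 inactive, ranged from 58.9 to 85.7 CPM (median 71.4) in high glucose and from 88.0 to 126 CPM (median 92.5) in normal glucose. The libraries of Mad2l1 did not overlap in these CPM, and the change was -0.39 ± 0.07 (adjusted p = 5.97e-05). With TMM factors they would overlap, since HG1 replicate 1 (85.7 CPM) had a factor of 0.987 and NG2 replicate 2 (88.0 CPM) 1.02. Bub1b, which encodes the checkpoint subunit BubR1, ranged from 62.8 to 101 CPM (median 77.5) in high glucose and from 88.7 to 137 CPM (median 109) in normal glucose (-0.40 ± 0.08, adjusted p = 0.000484). Its highest high-glucose library, HG3 replicate 1, lay above 4 of the 12 normal-glucose libraries. Aurkb, the kinase of the chromosomal passenger complex, changed by -0.38 ± 0.11 (adjusted p = 0.0235), and its lowest library was HGC replicate 2 at 23.9 CPM. The checkpoint kinases Bub1 and Ttk did not pass. Bub1 averaged 47.2 ± 6.88 CPM in high glucose and 48.5 ± 8.43 CPM in normal glucose, with a log2 change of 0.01 ± 0.10. Ttk averaged 96.9 ± 10.6 CPM in high glucose and 99.6 ± 13.1 CPM in normal glucose, with a log2 change of 0.01 ± 0.07. The passenger subunit Birc5 (survivin), at 409 ± 32.9 CPM in high glucose and 443 ± 38.03 CPM in normal glucose, did not pass either (-0.08 ± 0.06, adjusted p = 0.408).

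Of the 4 anaphase genes, 3 fell and the inhibitor of separase, Pttg1 (securin), did not pass. Their summed levels did not overlap, at 555 to 614 CPM in high glucose and 650 to 850 CPM in normal glucose. Espl1, which encodes separase, ranged from 42.7 to 57.7 CPM (median 49.7) in high glucose and from 54.5 to 94.6 CPM (median 65.4) in normal glucose (-0.36 ± 0.08, adjusted p = 0.00166). Its highest library was NG3 replicate 3; the next highest in normal glucose was at 70.3 CPM. Cdc20, the activator that the checkpoint restrains, ranged from 58.3 to 89.5 CPM (median 74.3) in high glucose and from 68.9 to 136 CPM (median 103) in normal glucose (-0.40 ± 0.09, adjusted p = 0.0038). Ube2c, the ubiquitin-conjugating enzyme of the anaphase-promoting complex, averaged 322 ± 15.4 CPM in high glucose and 382 ± 28.1 CPM in normal glucose (-0.20 ± 0.05, adjusted p = 0.00845). Pttg1 averaged 144 ± 15.9 CPM in high glucose and 154 ± 18.7 CPM in normal glucose (-0.04 ± 0.07, adjusted p = 0.779).

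Of the 5 kinesins, 2 fell. Kif2c, which depolymerises microtubules at centromeres, ranged from 42.8 to 59.7 CPM (median 47.8) in high glucose and from 54.5 to 83.3 CPM (median 69.4) in normal glucose. It changed by -0.47 ± 0.08 (adjusted p = 2.17e-05), and 9 of 10 high-glucose libraries lay below all of normal glucose. Kif23, a kinesin of the central spindle, ranged from 108 to 138 CPM (median 121) in high glucose and from 111 to 188 CPM (median 158) in normal glucose (-0.28 ± 0.07, adjusted p = 0.00919). Its lowest normal-glucose library was NG3 replicate 3, and without that library normal glucose began at 130 CPM. Kif11, the kinesin that separates the poles, did not pass at -0.22 ± 0.08 (adjusted p = 0.0854), nor did the chromokinesin Kif4 at -0.12 ± 0.08 (adjusted p = 0.404). Kif20a, a kinesin of late mitosis and the lowest member, had 6.87 to 13.1 CPM in high glucose and 4.75 to 14.2 CPM in normal glucose (0.10 ± 0.17, adjusted p = 0.80), so no difference was detectable at its depth of 18 to 71 counts per library.

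Of the 6 kinetochore genes, 2 fell. Cenpe, the kinetochore-bound motor, averaged 225 ± 20.3 CPM in high glucose and 278 ± 44.4 CPM in normal glucose (-0.27 ± 0.08, adjusted p = 0.0153). Spc25, a subunit of the microtubule-binding Ndc80 complex, averaged 133 ± 8.98 CPM in high glucose and 156 ± 7.76 CPM in normal glucose (-0.19 ± 0.06, adjusted p = 0.0268). The other subunits of that complex, Ndc80 and Nuf2, did not pass at -0.13 ± 0.07 and -0.07 ± 0.09, nor did the scaffold Knl1 at -0.23 ± 0.16 or Cenpf at -0.17 ± 0.09. Of the 5 spindle assembly genes, Tpx2, which activates Aurora A on the spindle, fell by 0.19 ± 0.06 (adjusted p = 0.0203) and Ckap2, a spindle microtubule protein, fell by 0.35 ± 0.10 (adjusted p = 0.0208). Nusap1, Prc1 and Ckap2l, also microtubule-binding proteins, did not pass at -0.21 ± 0.10, -0.09 ± 0.19 and -0.04 ± 0.09.

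Of the 3 cytokinesis genes, Ect2, an exchange factor of the cleavage furrow, and its partner Racgap1 fell, and the ring scaffold Anln did not pass. Racgap1 ranged from 213 to 258 CPM (median 239) in high glucose and from 256 to 339 CPM (median 287) in normal glucose (-0.26 ± 0.05, adjusted p = 0.000835). Ect2 ranged from 56.5 to 75.1 CPM (median 64.1) in high glucose and from 67.5 to 97.9 CPM (median 84.3) in normal glucose (-0.29 ± 0.07, adjusted p = 0.00581). In Racgap1 only HGC replicate 2, at 258 CPM, lay above the lowest normal-glucose library; in Ect2, 6 of 10 high-glucose libraries lay below all of normal glucose. Of the 3 condensation genes, Ncaph, the kleisin subunit of condensin I, fell, and topoisomerase II (Top2a) and the condensin I subunit Ncapg did not pass. Ncaph ranged from 38.7 to 52.1 CPM (median 45.8) in high glucose and from 53.0 to 83.9 CPM (median 63.5) in normal glucose, without overlap (-0.52 ± 0.08, adjusted p = 3.69e-06). Top2a had 722 to 893 CPM (median 847) in high glucose and 601 to 1054 CPM (median 1001) in normal glucose (-0.16 ± 0.06, adjusted p = 0.12), and 11 of 12 normal-glucose libraries, all but NG3 replicate 3, lay above every high-glucose library. Non-overlap towards lower values in high glucose was counted in CPM without TMM factors. It was seen in 2 of the 38 genes, Ncaph and Mad2l1, and in 0.211% of all genes tested. Without HGC replicate 2 and NG3 replicate 3 it was seen in 5 of the 38, the others being Top2a, Tpx2 and Racgap1, and in 0.354% of all genes.

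**Figure D3:**
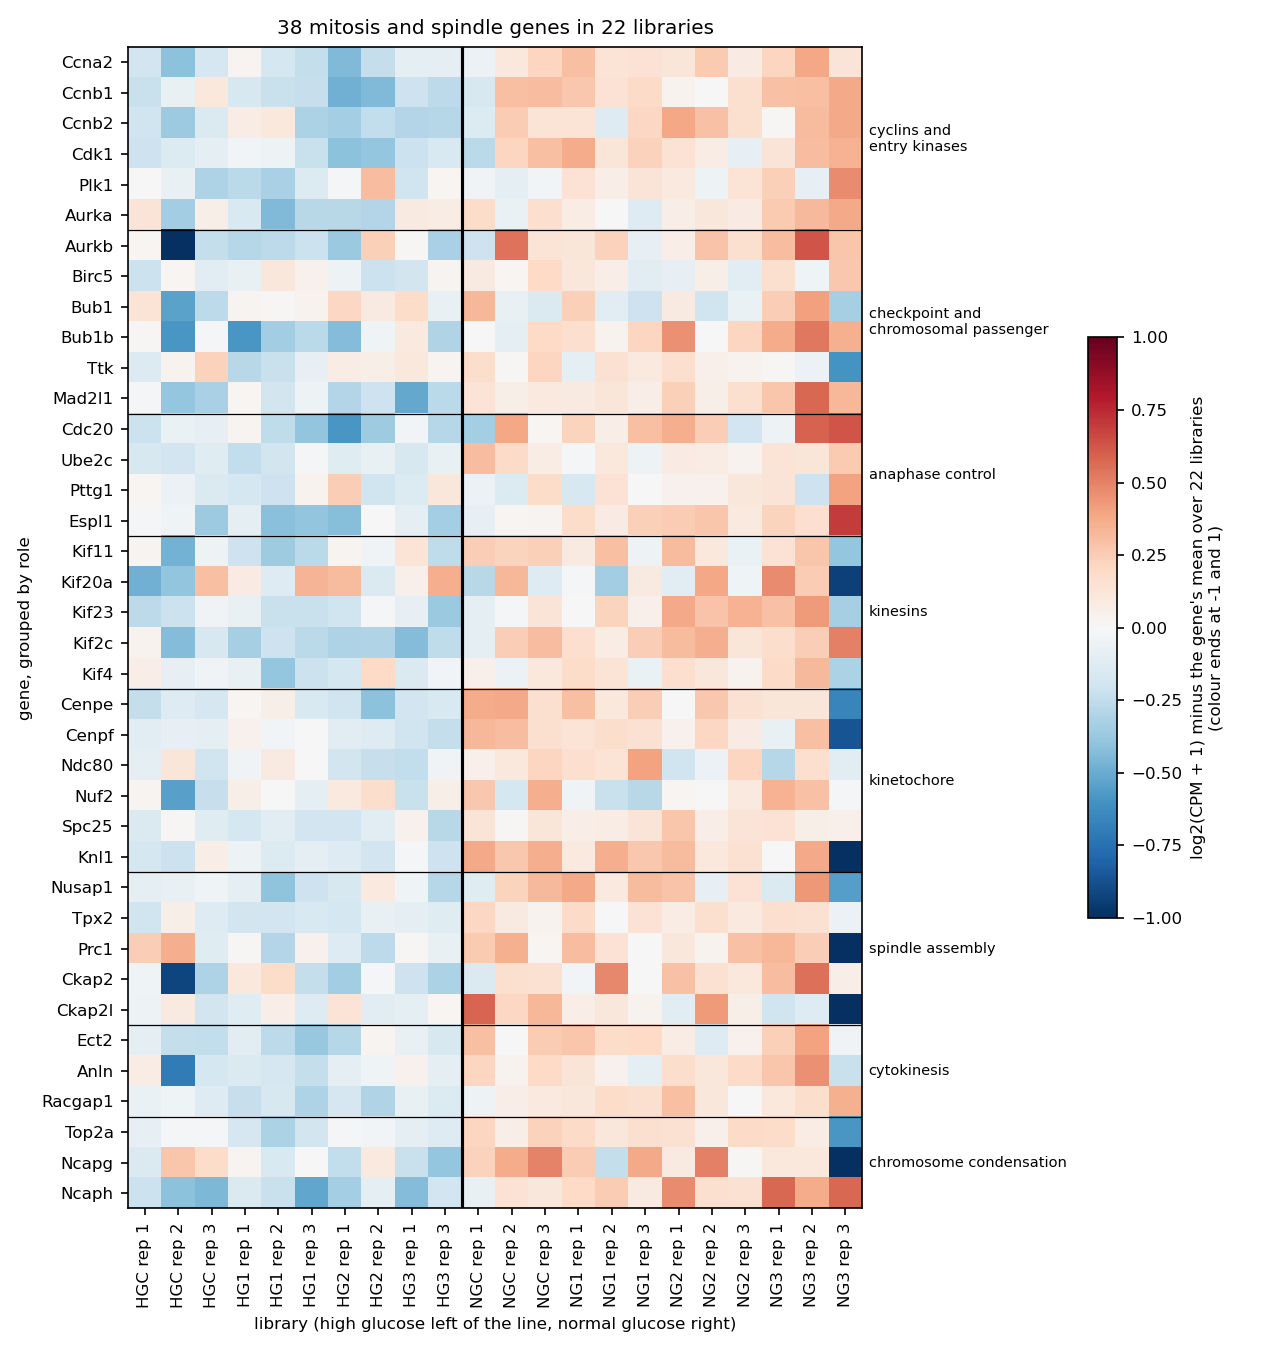
log2(CPM + 1) of the 38 genes (rows, grouped by role) in the 22 libraries (columns, high glucose left of the line and normal glucose right), each minus the gene's mean over the libraries; red is above and blue below that mean. Most genes are bluer in high glucose, and NG3 replicate 3 at the right edge is deep blue in Prc1, Ncapg, Knl1 and Ckap2l and red in Espl1 and Cdc20.

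The untreated and treated libraries gave separate readings of the media, since no library is in both comparisons. In untreated cells, HGC against NGC, none of the 38 genes passed by edgeR while 16 had an unadjusted p under 0.05, and 1 passed by DESeq2; lower calls covered 0.392% of all genes. All 38 log2 changes were negative, from -0.55 to -0.03 with a median of -0.23 and a median SE of 0.14, whereas 51.7% of all genes were negative. The lowest p-values were those of Ube2c (-0.34 ± 0.10, adjusted p = 0.0518), Cenpe (-0.48 ± 0.14, adjusted p = 0.0697) and Ncaph (-0.42 ± 0.14, adjusted p = 0.141). Without NG3 replicate 3, which is in neither group but enters the shared estimate of the spread, 5 genes passed; without NG3 replicate 2 it was 2, and without NGC replicate 3 or HGC replicate 1 it was 1.

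In treated cells, high against normal glucose over the 3 dose labels, 13 of the 38 genes fell, against 3.41% of all genes called lower, and 33 of 38 were negative with a median of -0.20. The 13 were Ccnb1, Ncaph, Kif2c, Cdk1, Mad2l1, Bub1b, Racgap1, Espl1, Ccna2, Ccnb2, Cdc20, Kif23 and Aurka, of which Ccnb1 changed by -0.45 ± 0.07 (adjusted p = 3.04e-05) and Ncaph by -0.55 ± 0.09 (adjusted p = 4.04e-05). Without NG3 replicate 3 the count was 22. Of the 13 calls, 11 held under all 33 alternative settings, and Aurka and Kif23 were lost in some. The 33 genes negative in treated cells were negative in untreated cells too. The sizes followed each other weakly over the 38 genes (Pearson r = 0.14, Spearman coefficient = 0.18, across genes, which are not independent replicates). The exceptions in sign were Kif20a, Bub1, Ckap2l, Ttk and Nuf2, negative in untreated cells and between 0.04 and 0.18 in treated cells. None of the 38 genes passed the test of the difference itself, the interaction of treatment and medium, in edgeR or in DESeq2 (2 had an unadjusted p under 0.05; 0.00753% of all genes were called by edgeR, and 29 genes by DESeq2). Ckap2l came closest at 0.50 ± 0.20 (adjusted p = 0.479).

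**Figure D4:**
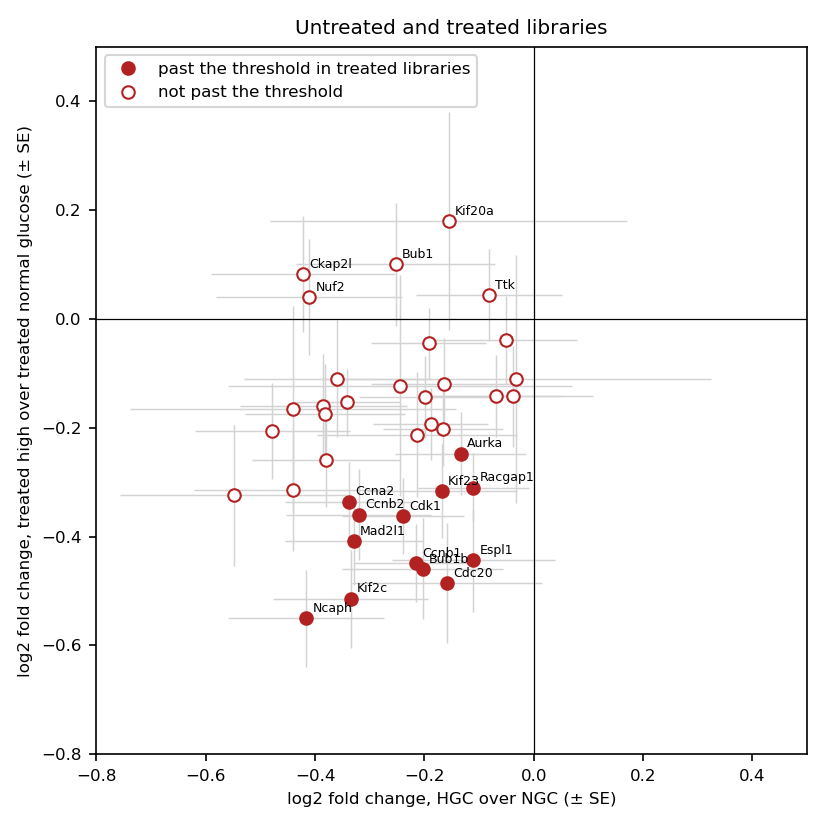
log2 fold change of each of the 38 genes between the media in treated libraries (y axis, treated high over treated normal glucose) against untreated libraries (x axis, HGC over NGC), with standard errors; filled points passed in treated libraries. All 38 points lie left of 0 and 33 also lie below 0, while the position along the axes is only weakly related (r = 0.14).

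At each dose label apart, the counts of calls between the media were low. HG1 against NG1 had a median of -0.23 with 34 of 38 negative and none called by edgeR (14 with an unadjusted p under 0.05, 2 by DESeq2; 0.346% of all genes called lower); Racgap1 was nearest at -0.34 ± 0.10 (adjusted p = 0.0717). Without NG3 replicate 3 it had 2 calls, and without NG3 replicate 2 or HGC replicate 2 it had 1. HG2 against NG2 had a median of -0.22 with 32 of 38 negative and none called (15 with an unadjusted p under 0.05, 1 by DESeq2; 0.151% of all genes called lower), with Ccnb1 nearest at -0.49 ± 0.13 (adjusted p = 0.0637). Without NG3 replicate 3 it had 2 calls and without NGC replicate 1 it had 1. HG3 against NG3 had a median of -0.17 (-0.29 without NG3 replicate 3) with 31 of 38 negative and 3 lower genes, against 0.241% of all genes. Mad2l1 had 58.9 and 69.7 CPM in HG3 and 103, 126 and 107 CPM in NG3 (-0.74 ± 0.14, adjusted p = 0.00373). Ncaph had 41.0 and 48.9 CPM in HG3 and 83.9, 72.4 and 83.8 CPM in NG3 (-0.76 ± 0.16, adjusted p = 0.00835). Ccnb1 had 168 and 161 CPM in HG3 and 237, 239 and 252 CPM in NG3 (-0.49 ± 0.13, adjusted p = 0.0468). In all 3 genes both HG3 libraries lay below the 3 NG3 libraries, and none of the 3 calls was made without HG3 replicate 1 and 1 without HG3 replicate 3. Over 33 alternative settings the call held in 31 for Mad2l1, 30 for Ncaph and 14 for Ccnb1, which passed in 5 of the 22 settings that leave out 1 library. These 4 level-by-level comparisons share no library, and 26 of the 38 genes (68.4%) were negative in all of them, against 13.7% of all genes tested.

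Between mogroside V and control libraries of the same medium, 1 call was made in all. Against HGC, none of the 38 genes passed in HG1, HG2 or HG3 by edgeR or DESeq2, with 1, 2 and 0 at an unadjusted p under 0.05 and medians of -0.03, -0.03 and -0.01; over all genes edgeR called 0% in each, and DESeq2 called 9 genes in HG1 and 0 in HG2 and HG3. The summed level of the 38 genes was 5935 ± 77.3 CPM in HGC, 5831 ± 106 CPM in HG1, 5802 ± 91.2 CPM in HG2 and 5868 ± 49.6 CPM in HG3 (SD, n = 3, 3, 2 and 2). In high glucose Ccnb1 had the lowest p, in HG2 at -0.42 ± 0.13 (adjusted p = 0.82), with 138 and 142 CPM in HG2 and 165, 184 and 208 CPM in HGC. Against NGC, none passed in NG1 (2 at an unadjusted p under 0.05; 0% of all genes called by edgeR, and 0 genes by DESeq2) or NG2 (1 at an unadjusted p under 0.05; 0.00753% of all genes called by edgeR, and 25 genes by DESeq2), by either tool. The summed level was 7088 ± 228 CPM in NGC, 7067 ± 150 CPM in NG1, 6952 ± 135 CPM in NG2 and 6970 ± 616 CPM in NG3 (SD, n = 3 each). Treated against control libraries over both media gave no call by either tool, 1 gene at an unadjusted p under 0.05 and a median of -0.03, with 0% of all genes called by edgeR and 1 gene by DESeq2. The median SE of the 38 genes was 0.08. A log2 change of that size, or of a few times that size, could go uncalled here.

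In NG3 against NGC, 1 of the 38 genes fell, Ckap2l, a protein of spindle poles, against 0.12% of all genes called lower. It had 97.8, 103 and 55.6 CPM in NG3 and 169, 130 and 142 CPM in NGC (-0.84 ± 0.17, adjusted p = 0.0463). All 3 NG3 libraries lay below the NGC libraries, the lowest being NG3 replicate 3. The call was lost on leaving out any of 14 of the 22 libraries, NG3 replicate 3 among them, and it held in 16 of 33 alternative settings; without NG3 replicate 2, 4 members were called. In NG1 Ckap2l was at 118, 122 and 115 CPM and in NG2 at 104, 151 and 117 CPM.

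The library NG3 replicate 3 departed from the other 11 normal-glucose libraries in these genes more than in their sum. It lay below the range of the others in 16 of the 38 genes, above it in 9 and within it in 13. Prc1 was at 12.7 CPM in that library and 51.0 to 65.4 CPM in the others, Ncapg at 12.1 CPM and 35.9 to 60.8 CPM in the others, and Knl1 at 31.1 CPM and 94.0 to 122 CPM in the others. Espl1 was at 94.6 CPM against 54.5 to 70.3 CPM, and Plk1 at 192 CPM against 130 to 163 CPM. Over the 38 genes the log2 ratio to the median of the others followed the GC content of the longest transcript (r = 0.62, Spearman coefficient = 0.60), and over 13084 genes less so (r = 0.31). It also went with exon length, taken over all annotated exons of a gene, over the 38 genes (Spearman coefficient = -0.48). In the 19 genes of lower GC content the median ratio was -0.61 on the log2 scale, and in the 19 of higher GC content it was 0.21. HGC replicate 2 lay below the range of the other high-glucose libraries in 9 genes and above it in 5, with no relation to GC content (r = -0.02). The difference between the media over the 4 levels had r = -0.26 with GC content over the 38 genes, the lower-GC genes being less negative, and with the GC trend of each library removed 22 genes were lower. The transcripts of the 38 genes had a median GC content of 46.0%, against 48.9% of all genes tested.

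**Figure D5:**
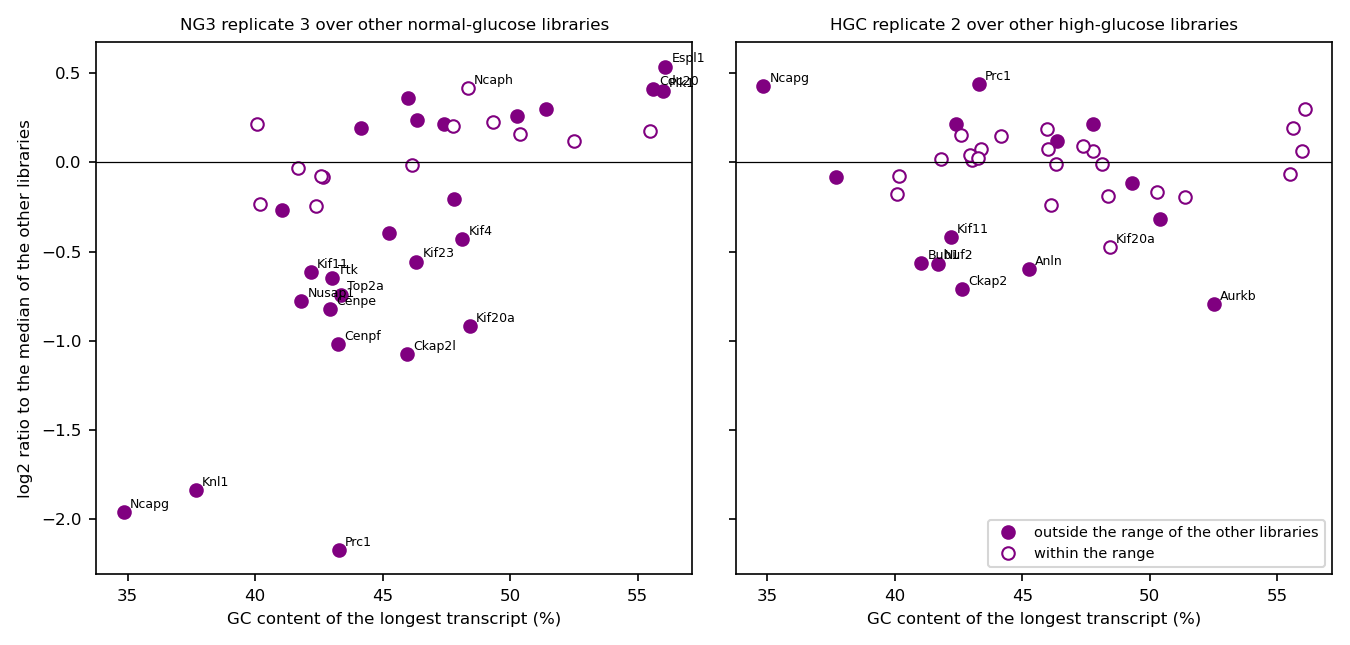
log2 ratio of each of the 38 genes in 1 library to the median of the other libraries of its medium (y axis) against the GC content of its longest transcript in percent (x axis), for NG3 replicate 3 (left) and HGC replicate 2 (right); filled points lie outside the range of the other libraries. The NG3 replicate 3 points climb with GC content (r = 0.62) from Ncapg and Knl1 to Espl1, and the HGC replicate 2 points do not (r = -0.02).

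Within groups the 38 genes did not rise and fall together as a set. Over the 703 pairs of genes, the median Pearson correlation of their deviations from group means in 22 libraries was 0.06, with 54.3% of pairs positive. Over all pairs of tested genes the median was 0.0019, with 50.25% positive. These points share library depth and composition. Pairs of members ran from -0.70 (Plk1 with Cenpf) to 0.93, so pairs of opposite sign offset each other in the median. Without NG3 replicate 3 and HGC replicate 2 they ran from -0.79 (Kif20a with Anln) to 0.82. Among the 10 high-glucose libraries the median was 0.0027 (0.026 without HGC replicate 2), and among the 12 normal-glucose libraries 0.09 (0.058 without NG3 replicate 3). The 3 most alike pairs were Cenpf with Knl1 (r = 0.93, Spearman coefficient = 0.45), Top2a with Prc1 (r = 0.91, Spearman coefficient = 0.52) and Top2a with Knl1 (r = 0.89, Spearman coefficient = 0.53), all of them genes that are low in NG3 replicate 3. Without that library and HGC replicate 2, over 20 libraries, they were Ccnb2 with Cdc20 (r = 0.82, Spearman coefficient = 0.80), Ccnb2 with Cdk1 (r = 0.81, Spearman coefficient = 0.83) and Ccna2 with Cdk1 (r = 0.75, Spearman coefficient = 0.78). The genes least like the sum of the other members were Pttg1 (r = -0.66, Spearman coefficient = -0.52), Plk1 (r = -0.62, Spearman coefficient = -0.30) and Ube2c (r = -0.60, Spearman coefficient = -0.61) over 22 libraries. These values lean on NG3 replicate 3 in part. Among normal-glucose libraries they were -0.72, -0.71 and -0.51, and without NG3 replicate 3 -0.43, -0.26 and -0.28. Among high-glucose libraries they were -0.63, -0.40 and -0.55. In high glucose Birc5 (r = -0.76) and Ckap2l (r = -0.68) were the least alike.

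Other genes of the same processes were read in the same comparison over the 4 levels, in which 4.38% of all genes were called lower. Of 36 other kinetochore and centromere genes 12 fell and none rose (median -0.19), among them the centromeric histone Cenpa (-0.50 ± 0.07, adjusted p = 8.6e-07), its chaperone Hjurp (-0.32 ± 0.07) and the Ndc80 complex subunit Spc24 (-0.30 ± 0.07). Of 35 other spindle and midzone genes 9 fell and none rose (median -0.18), among them Troap (-0.56 ± 0.08, adjusted p = 2.04e-06), the spindle protein Spag5 (-0.43 ± 0.07) and the dynein regulator Nde1 (-0.25 ± 0.07). Of 17 genes of the anaphase-promoting complex and its regulators 3 fell (median -0.10): its inhibitor Fbxo5 (-0.29 ± 0.08), the subunit Anapc2 (-0.26 ± 0.07) and the G1 activator Fzr1 (-0.22 ± 0.07). Of 15 other condensin and cohesin genes 1 fell, the condensin I subunit Ncapd2 (-0.22 ± 0.06; median of the list -0.07). Of 25 tested regulators of entry 3 fell (median -0.15): the repressor E2f7 (-0.26 ± 0.07), Ccnf (-0.31 ± 0.09) and the E2F partner Tfdp1 (-0.24 ± 0.07).

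Genes of earlier phases of the cycle were read in the same comparison, with the same 4.38% of all genes called lower. Of 24 S-phase genes 2 fell (median -0.11), thymidine kinase Tk1 (-0.31 ± 0.06, adjusted p = 0.000613) and the replication factor Cdc45 (-0.28 ± 0.09, adjusted p = 0.0352). Of 10 G1 cyclins and their kinases 2 fell (median -0.06), cyclin D1 (Ccnd1, -0.54 ± 0.10, adjusted p = 0.000573) and Cdk2 (-0.30 ± 0.08, adjusted p = 0.00949). Of 17 tested Cdk inhibitors and arrest genes 3 rose and none fell (median 0.11), against 5.71% of all genes called higher: the p53-induced Trp53inp1 (0.52 ± 0.13, adjusted p = 0.00437) and the stress genes Gadd45g (0.29 ± 0.08, adjusted p = 0.00972) and Gadd45b (0.28 ± 0.09, adjusted p = 0.0311). Summed, the 9 fibroblast and pericyte markers were at 7081 to 8015 CPM in high glucose and 5830 to 7883 CPM in normal glucose, with 2 of 8 tested called higher. The 11 neuron markers summed to 114 to 136 CPM in high glucose and 120 to 163 CPM in normal glucose, with 1 of 5 tested called lower. The part of either marker list in the difference in mitotic genes was not tested.

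Exons of 11 of the 38 genes overlap those of another gene in the GENCODE annotation of GRCm38, and whether reads were counted by strand is not stated in the labels or processing notes. Elovl1 overlaps Cdc20 on the opposite strand by 53 bases and was at a median of 59.1 CPM, Pdzd11 overlaps Kif4 by 832 bases at 36.3 CPM and Lcorl overlaps Ncapg by 944 bases at 31.2 CPM. Cdc23 overlaps Kif20a on the opposite strand by 1271 of its 4338 exon bases at 6.71 CPM, near the level of Kif20a itself. Oip5 overlaps Nusap1 at 18.1 CPM, Exosc9 overlaps Ccna2 at 5.24 CPM and Rccd1 overlaps Prc1 at 2.11 CPM, all on the opposite strand. Values of these members are less certain, and the partners of the other 4 had a median of 0. The pseudogenes Ccnb1-ps, Ccnb2-ps and Kif4-ps had at most 8 counts in any library.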

How the data were processed

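The authors deposited 24 tables of raw read counts per gene, 1 per library, with whole-number counts and no normalization. Per the submitters' processing notes, the tools were STAR 2.7.5c, HTSeq 1.99.2, FastQC 0.11.9 and DESeq2 3.16, and the build was GRCm39; per the labels' protocols, RNA was made with the PureLink RNA Mini Kit and libraries with the VAHTS Universal V8 kit. Groups and replicate numbers came from the sample titles. Summary lines that name no gene were left out of library sizes (14.4% to 20.6% of reads lay outside genes, 3.46% to 4.15% were ambiguous and 16.5% to 18.9% aligned to several places). Symbols were matched for 51948 of 56941 identifiers.

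Counts were tested with edgeR 4.0.16 in R 4.3.3: TMM factors, filterByExpr, robust quasi-likelihood fit over the 8 groups (14 residual degrees of freedom), 14 contrasts, Benjamini-Hochberg adjustment over the 13281 genes of each contrast, threshold 0.05; log2 fold changes carry standard errors from that fit. HG2 replicate 3 and HG3 replicate 2, identical in every line, were left out. DESeq2 1.42.0 was an alternative. CPM used totals of gene counts, and correlations used log2(CPM + 1). Exon lengths, over all annotated exons of a gene, and the GC content of the longest transcript came from GENCODE on GRCm38 by gene identifier. Promoter windows came from RefSeq, and no coordinate was converted between builds. Counts for 12674 genes were simulated with 1 common spread for all genes and 50 genes changed at each size. In them, the comparison over the 4 levels recovered 62% of genes changed by 0.4 (log2) and 8% of those changed by 0.25. HGC against NGC recovered 4% and 0%. In the data, spreads differ between genes and 1340 genes were called over the 4 levels. These shares therefore do not give the share of such changes that would be called among the mitosis genes. The members and lists were chosen with earlier results of these data known. Values are given for the 12 members with the lowest p over the 4 levels and any member called in another comparison, up to 3 with the lowest p where none was called, and up to 3 called genes of each other list.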

Additional observations from a re-analysis of the deposited data

How the results depend on the processing

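Over the 4 levels, every alternative gave 14 to 27 lower members and no higher one, with 21 under the replicate block, 20 by DESeq2 and 23 with library totals in place of TMM factors; leaving out 1 library gave 14 to 26. In treated cells leaving out 1 library gave 11 to 22, and leaving out HGC replicate 2 and NG3 replicate 3 together gave 24. Against the 0 calls of HGC against NGC, 1 member passed with library totals, no low-count filter, DESeq2, the replicate block, only the groups compared or the identical file used in HG2, and 2 with the GC trend removed, all 24 files or without those 2 libraries (0 to 5 leaving out 1 library). Against 0 for HG1 against NG1, library totals and the GC trend gave 1, no filter and DESeq2 2, only the groups compared 7 and leaving out the 2 libraries 4 (leaving out 1, 0 to 2). Against 0 for HG2 against NG2, library totals, no filter and DESeq2 gave 1, only the groups compared 6, the identical file in HG2 or all 24 files 5 and leaving out the 2 libraries 3 (leaving out 1, 0 to 2). Against 3 for HG3 against NG3, only the groups compared gave 0, the identical file in HG3 6, all 24 files 9 and leaving out the 2 libraries 5 (leaving out 1, 0 to 4). For NG3 against NGC, RLE factors, only the groups compared and leaving out the 2 libraries gave 0 and no filter 3 (leaving out 1, 0 to 4). The causes were not tested. No alternative turned a called member round. Same-numbered libraries did not deviate together (median r = 0.01 over 70 pairs, 1 above 0.1). This cannot exclude pairing, since deviations within groups of 2 or 3 libraries must sum to 0, and the labels do not state it. The median correlation between members was 0.04 to 0.09 under all its alternatives. In simulated counts with 1 common spread for all genes, HGC against NGC recovered 4% of changes of 0.4, against 62% over the 4 levels. Spreads differ between genes in the data, so these shares do not carry over to the members.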

Other observations

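The file deposited for both HG2 replicate 3 and HG3 replicate 2, in no comparison, had a summed level of 5487 CPM over the 38 mitosis and spindle genes, below all 22 other libraries. It held 140 CPM of Ccnb1, 86.8 CPM of Mad2l1 and 42.8 CPM of Ncaph; its Mad2l1 level was above all 10 high-glucose libraries used and below all 12 normal-glucose ones.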
